A study of Mus musculus with 6 samples.

Results

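The 10 genes of the NRF2 antioxidant response described here were Nfe2l2, Keap1, Slc7a11, Gclc, Gclm, Gsr, Txnrd1, Srxn1, Nqo1 and Hmox1. They were chosen by name, as well-known components and targets of the pathway, but with earlier results of these data known. They are 10 of the 36870 distinct gene symbols in the table. Each had 1 row, and all 10 passed the minimum level for testing. The libraries came from bone marrow mesenchymal stem cells (BMMSCs) of C57BL/6 mice, the adherent cells that grow out of flushed marrow in culture. In the 3 control libraries the cells had received non-targeting siRNAs, and in the 3 Tet1/Tet2 siRNA libraries (siTet1/Tet2 in the labels) siRNAs against Tet1 and Tet2 together. The labels name no other treatment or genetic change in either group and give passage 2, whereas the methods give passage 1 and call the controls of the RNA-seq vehicle-treated. Neither source gives the age of the mice for these libraries, the time after transfection, or whether the replicates were separate cultures or animals, so the p-values measure the spread between these libraries, which may be technical. Expression was given as RPKM, the reads on a gene relative to its length and to the mapped reads of the library, so levels can be set side by side between genes.

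NRF2, the protein encoded by Nfe2l2, is a transcription factor that switches on genes of redox defence. In resting cells KEAP1 binds it and passes it to a ubiquitin ligase, so that it is degraded. Oxidants and electrophiles modify cysteines of KEAP1, NRF2 then escapes, enters the nucleus, pairs with a small MAF protein and binds antioxidant response elements in the DNA of its target genes. Control is therefore exerted mainly on the protein, and the RNA level of Nfe2l2 does not measure NRF2 activity. The targets provide glutathione, reduce oxidized proteins, detoxify quinones and break down heme. Tet proteins oxidize 5-methylcytosine in DNA, which leads to its demethylation, and the comparison of the groups asks which genes change when Tet1 and Tet2 are depleted.

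The promoters are shown because NRF2 acts through a short DNA element and Tet proteins act on CG dinucleotides. No methylation or binding was measured here, so the sequences are a description. RefSeq promoters on GRCm38.p6, from 250 bases before to 50 after the transcription start, were found for 7 of the 10 genes (Nfe2l2, Keap1, Nqo1, Gclm, Txnrd1, Slc7a11 and Srxn1), with 9 promoters in all because Txnrd1 had 3. The others, Hmox1, Gclc and Gsr, were not matched. The motifs below were searched on both strands, and the capitals below mark their matches: TGACNNNGC, the core of the antioxidant response element; TGANTCAGC, another form of that element, which contains the AP-1 site and overlaps the first motif only in part; and TGATGCAA, a composite site of the amino acid response that is bound by ATF4. The last 2 motifs were added after the data had been seen. The 250 bases before the start are given for Gclm, which changed most, for Srxn1 and Slc7a11, which held TGANTCAGC and the ATF4 motif, and for Nqo1, which held no match.
Gclm, chr3:122245307-122245556, plus strand: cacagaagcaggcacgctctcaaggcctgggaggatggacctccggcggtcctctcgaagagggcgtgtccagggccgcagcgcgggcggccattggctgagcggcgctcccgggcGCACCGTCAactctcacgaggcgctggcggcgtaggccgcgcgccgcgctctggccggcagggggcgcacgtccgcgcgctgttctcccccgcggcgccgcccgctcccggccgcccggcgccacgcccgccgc
Srxn1, chr2:152105274-152105523, plus strand: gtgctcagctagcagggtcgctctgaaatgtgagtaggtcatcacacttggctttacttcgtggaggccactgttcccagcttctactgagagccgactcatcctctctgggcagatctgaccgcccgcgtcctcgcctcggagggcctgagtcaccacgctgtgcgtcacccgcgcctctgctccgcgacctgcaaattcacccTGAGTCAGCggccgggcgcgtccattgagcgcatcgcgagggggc
Slc7a11, chr3:50443614-50443863, minus strand: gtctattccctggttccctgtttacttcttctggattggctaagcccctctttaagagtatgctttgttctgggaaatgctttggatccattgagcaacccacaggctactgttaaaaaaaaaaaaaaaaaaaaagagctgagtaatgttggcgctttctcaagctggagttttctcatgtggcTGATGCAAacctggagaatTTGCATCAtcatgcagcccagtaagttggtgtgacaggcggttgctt
Nqo1, chr8:107403206-107403455, minus strand: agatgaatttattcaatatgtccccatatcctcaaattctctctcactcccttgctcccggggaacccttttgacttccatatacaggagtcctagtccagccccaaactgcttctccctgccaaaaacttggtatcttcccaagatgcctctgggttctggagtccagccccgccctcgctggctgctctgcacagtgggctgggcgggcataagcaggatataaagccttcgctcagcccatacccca

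TGACNNNGC was found in 4 of the 9 promoters, in 4 genes, against 12.4% of all 32851 promoters of the table. In Gclm the match lay 134 to 126 bases before the start, on the strand opposite to the gene, where it reads TGACGGTGC. The other matches are given with 10 bases on either side, in the direction of the motif.
Nfe2l2, chr2:75704885-75704913, minus strand, 240 to 232 bases before the start: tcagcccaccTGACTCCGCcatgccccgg
Txnrd1, the second promoter, chr10:82859104-82859132, minus strand, 92 to 84 bases before the start: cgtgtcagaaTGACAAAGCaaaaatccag
Srxn1, chr2:152105542-152105570, minus strand, 29 to 37 bases after the start: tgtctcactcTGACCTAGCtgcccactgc

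TGANTCAGC was found in Srxn1 alone among the 9 promoters, 45 to 37 bases before the start, and in 1.19% of all promoters. TGATGCAA was found in Slc7a11 alone, at 2 places 66 to 59 and 47 to 40 bases before the start and on opposite strands, and in 0.895% of all promoters. The 300-base promoters differed widely in CG dinucleotides: Gclm held 48, Srxn1 26, Nfe2l2 18, Keap1 13, Nqo1 5 and Slc7a11 4, and those of Txnrd1 held 3, 27 and 12, with a median of 7 over all promoters. These windows are short, and the lack of a match says only that the letters are not in them.

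The knockdown was checked first. In control libraries 1, 2 and 3 the level of Tet2 was 2.57, 4.08 and 3.71 RPKM, and with Tet1/Tet2 siRNA it was 0.358, 0.238 and 0.202 RPKM (limma, adjusted p = 2.88e-05). The level of Tet1 did not exceed 0.098 RPKM in any library. This is under the minimum mean of 0.1 RPKM, so Tet1 was not tested and its knockdown could not be judged from these values. The cell type was then checked against its markers. The stromal genes Pdgfra, Pdgfrb and Col1a1 were present in the controls at 9.92, 30.2 and 488 RPKM on average and fell to 0.944, 5.19 and 72.1 RPKM. Of 12 stromal markers tested, 10 fell and 1 rose, whereas 29.8% of all genes tested fell and 14.7% rose (limma, adjusted p under 0.05). The summed level of the stromal markers was 1563 to 2250 RPKM in the controls and 263 to 469 RPKM after Tet1/Tet2 siRNA. Thy1, Lepr and Lum, also listed as stromal markers, were under 0.15 RPKM in every library. Macrophage genes, which a stromal culture should lack, were abundant in every library. Ptprc, which encodes the pan-leukocyte surface protein CD45, was at 47.4, 54.4 and 56.0 RPKM in the controls and 52.6, 47.2 and 59.3 RPKM after Tet1/Tet2 siRNA. Adgre1, which encodes F4/80 and is listed under its older symbol Emr1, averaged 305 and 350 RPKM (adjusted p = 0.0624). Csf1r, the receptor of the macrophage growth factor, averaged 499 and 604 RPKM (adjusted p = 0.0173). Of the 15 macrophage markers, 9 rose and 3 fell, and their summed level was 6786 to 8901 RPKM in the controls and 14430 to 17520 RPKM after Tet1/Tet2 siRNA. The lysozyme gene Lyz2, singled out after its values had been seen, carried most of this increase, from 4439 to 11321 RPKM, and without it the sum was 3238 to 3887 RPKM and 4587 to 4839 RPKM. The median log2 fold change of the 15 markers was 0.27. The libraries labelled BMMSCs thus carried RNA of both kinds, and the balance differed between the groups. In bulk RNA, fewer cells of a type and less RNA per cell cannot be told apart, and the part of the cell mixture in the results below was not tested.

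More of the NRF2 genes rose than fell. Gclm, Hmox1, Gsr, Srxn1, Gclc and Txnrd1 rose after Tet1/Tet2 siRNA, Nqo1 and Keap1 fell, and neither Nfe2l2 nor Slc7a11 passed the test. A gene was called where limma on log2(RPKM + 1) gave an adjusted p under 0.05 over the 13266 genes tested. The 6 called higher compare with 14.7% of all genes tested called higher, and the 2 called lower with 29.8% called lower. In all 8 the groups did not overlap, 6 higher and 2 lower, whereas 19.8% of all genes were higher and 35.9% lower without overlap. Neither the 2 of 10 called lower nor the 2 of 10 lower without overlap exceeded the share of all genes. By the thresholds the study used, a fold change over 2 together with an unadjusted p under 0.05, Gclm was the only member altered, against 0.95% of all genes altered and higher. The median log2 fold change of the 10 genes was 0.36, and that of all genes tested -0.09. Since the members were chosen with earlier results known, these counts and this median are not independent evidence of a direction. Summed over the 10 genes, the level was 1410, 1309 and 1165 RPKM in control libraries 1, 2 and 3 and 2332, 2333 and 2209 RPKM in Tet1/Tet2 siRNA libraries 1, 2 and 3. Hmox1 made up most of this sum, and the other 9 genes rose from 511, 506 and 461 RPKM to 709, 743 and 766 RPKM.

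**Figure D1:**
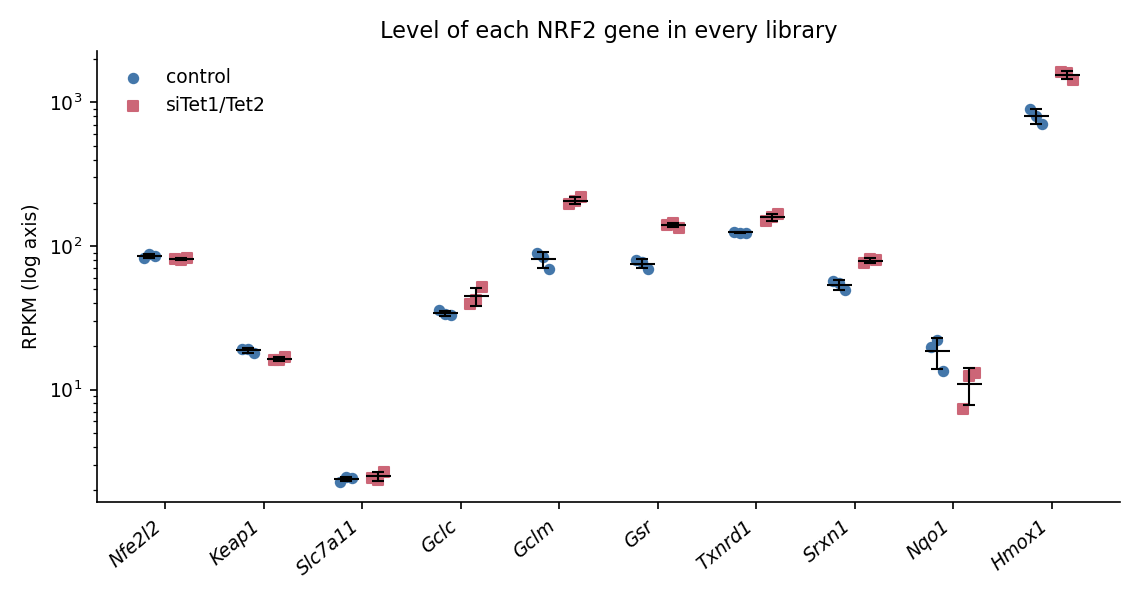
Level of each NRF2 gene in RPKM on a log axis, with 1 point per library (blue circles for the 3 control libraries, red squares for the 3 Tet1/Tet2 siRNA libraries), a long bar at the mean and error bars of 1 SD. The red points lie above the blue ones for Gclc, Gclm, Gsr, Txnrd1, Srxn1 and Hmox1, below them for Keap1 and Nqo1, and among them for Nfe2l2 and Slc7a11.

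The levels of the genes spanned a wide range. In the controls Hmox1 stood highest at 802 RPKM on average, followed by Txnrd1 at 124, Nfe2l2 at 85.1, Gclm at 80.6, Gsr at 75.5, Srxn1 at 53.7, Gclc at 33.9, Keap1 at 18.8, Nqo1 at 18.4 and Slc7a11 at 2.38 RPKM. The libraries of Gclm overlapped those of Nfe2l2 and of Gsr, and those of Keap1 overlapped those of Nqo1, so the order within these pairs was not beyond the spread of the libraries. After Tet1/Tet2 siRNA the order was Hmox1, Gclm, Txnrd1, Gsr, Nfe2l2, Srxn1, Gclc, Keap1, Nqo1 and Slc7a11, with overlap of neighbours for Nfe2l2 and Srxn1 alone. Ranked by mean level among all symbols, Hmox1 went from place 36 to place 16, Gclm from 917 to 245 and Gsr from 991 to 415, whereas Nqo1 went from 4255 to 5671.

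Nfe2l2 and Keap1 encode the transcription factor and the adaptor that holds it in check. Nfe2l2, on chromosome 2 from 75675513 to 75704641 of GRCm38, was at 82.2, 88.5 and 84.6 RPKM in control libraries 1, 2 and 3 and at 81.2, 79.2 and 82.3 RPKM in Tet1/Tet2 siRNA libraries 1, 2 and 3. The highest siRNA library lay just above the lowest control, so the groups overlapped. The log2 fold change was -0.07 (95% interval -0.20 to 0.06, adjusted p = 0.331 from limma). Its sign turned under median-ratio scaling (0.03) and quantile normalization (0.02). Keap1, on chromosome 9 from 21229730 to 21239361, was at 19.3, 19.2 and 17.8 RPKM in the controls and at 16.0, 16.0 and 17.0 RPKM after Tet1/Tet2 siRNA. Every siRNA library lay below every control, and the mean fell from 18.8 ± 0.806 to 16.3 ± 0.553 RPKM (SD, n = 3 each; log2 fold change -0.19, standard error 0.07, adjusted p = 0.0443 from limma). This call was near the threshold. It was lost with the replicate number as a block (adjusted p = 0.0506 from limma), under median-ratio scaling (0.285), under quantile normalization (0.536), without a filter on low values (0.065), by eBayes without trend (0.0508) and when any library other than control 3 was left out.

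Slc7a11, Gclc and Gclm act in a line to make glutathione. Slc7a11 encodes xCT, the transporter that brings in cystine, GCLC is the catalytic subunit of glutamate-cysteine ligase, the rate-limiting enzyme, and GCLM is its modifier subunit, which raises the efficiency of the enzyme. Slc7a11, on chromosome 3 from 49892526 to 50443614, was low in every library, at 2.28, 2.44 and 2.43 RPKM in the controls and at 2.42, 2.35 and 2.67 RPKM after Tet1/Tet2 siRNA. The groups overlapped (log2 fold change 0.04, 95% interval -0.15 to 0.23, adjusted p = 0.719 from limma). The sign turned to -0.01 when the libraries were rescaled to the same sum, and under quantile normalization the gene was called higher (0.26, adjusted p = 0.0199 from limma). By an estimate of the depth, between 720 and 870 reads stood behind each of these values.

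Gclc, on chromosome 9 from 77754535 to 77794485, was at 35.6, 33.3 and 32.8 RPKM in the controls and at 39.6, 42.1 and 51.9 RPKM after Tet1/Tet2 siRNA. All siRNA libraries lay above the controls, with siRNA library 3 apart from the other two. The mean rose from 33.9 ± 1.48 to 44.5 ± 6.50 RPKM (SD, n = 3 each; log2 fold change 0.37, standard error 0.10, adjusted p = 0.0155 from limma), and the call was lost without control library 2 (adjusted p = 0.0536 from limma) and without a filter on low values (0.158). Gclm, on chromosome 3 from 122245557 to 122270732, was at 89.0, 83.5 and 69.2 RPKM in the controls and at 197, 206 and 218 RPKM after Tet1/Tet2 siRNA. The siRNA libraries lay far above the controls. The mean rose 2.57-fold, from 80.6 ± 10.2 to 207 ± 10.5 RPKM (SD, n = 3 each; log2 fold change 1.36, standard error 0.10, adjusted p = 2.23e-05 from limma), the largest change of the 10 genes. The subunits of the same enzyme thus rose by different amounts. The ratio of Gclm to Gclc was 2.50, 2.51 and 2.11 in the controls and 4.98, 4.89 and 4.2 after Tet1/Tet2 siRNA, with no overlap (two-sided exact permutation p = 0.1, the smallest that 3 against 3 libraries can give, and adjusted p = 0.111 over the 10 ratios compared).

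Gsr, Txnrd1 and Srxn1 encode enzymes that return oxidized thiols to their reduced form. GSR, glutathione reductase, uses NADPH to turn oxidized glutathione back into glutathione. Gsr, on chromosome 8 from 33652523 to 33698163, was at 79.8, 77.7 and 69.0 RPKM in the controls and at 141, 145 and 134 RPKM after Tet1/Tet2 siRNA, far apart. The mean rose 1.85-fold, from 75.5 ± 5.73 to 140 ± 5.46 RPKM (SD, n = 3 each; log2 fold change 0.88, standard error 0.07, adjusted p = 4.3e-05 from limma). TXNRD1, the cytosolic thioredoxin reductase, does the same for thioredoxin. Txnrd1, on chromosome 10 from 82833951 to 82897712, was steady in the controls at 126, 124 and 122 RPKM and stood at 150, 159 and 167 RPKM after Tet1/Tet2 siRNA. The groups did not overlap, and the mean rose 1.28-fold (log2 fold change 0.35, standard error 0.06, adjusted p = 0.00235 from limma). SRXN1, sulfiredoxin, repairs peroxiredoxins that have been oxidized too far. Srxn1, on chromosome 2 from 152105516 to 152111376, was at 57.2, 54.9 and 49.1 RPKM in the controls and at 75.5, 81.2 and 79.8 RPKM after Tet1/Tet2 siRNA. Again every siRNA library was above every control, and the mean rose 1.47-fold (log2 fold change 0.55, standard error 0.07, adjusted p = 0.00045 from limma).

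Nqo1 and Hmox1, often read as reporters of NRF2 activity, went in opposite directions. NQO1 passes a pair of electrons to quinones at once, which avoids reactive semiquinones. Nqo1, on chromosome 8 from 107388225 to 107403206, was at 19.6, 22.2 and 13.5 RPKM in the controls and at 7.30, 12.3 and 13.1 RPKM after Tet1/Tet2 siRNA. The groups were separated by a narrow gap, between siRNA library 3 and control library 3. The mean fell from 18.4 ± 4.50 to 10.9 ± 3.16 RPKM (SD, n = 3 each; log2 fold change -0.72, 95% interval -1.25 to -0.19, adjusted p = 0.0349 from limma), with the widest interval of the 10 genes and an estimated 430 to 1140 reads per library. The call was lost under median-ratio scaling (adjusted p = 0.0553), under quantile normalization (0.0721), without a filter on low values (0.332), and without control library 1 (0.0863), control library 2 (0.119), siRNA library 1 (0.0919) or siRNA library 2 (0.0531), all from limma, although the log2 fold change stayed between -0.99 and -0.47. HMOX1, heme oxygenase 1, opens the heme ring and releases iron, biliverdin and carbon monoxide, and its gene is also driven by heme through release of the repressor BACH1. Hmox1, on chromosome 8 from 75093621 to 75100589, was at 899, 803 and 705 RPKM in the controls and at 1623, 1590 and 1443 RPKM after Tet1/Tet2 siRNA. The groups were far apart, and the mean rose from 802 ± 97.2 to 1552 ± 95.9 RPKM (SD, n = 3 each; log2 fold change 0.96, standard error 0.11, adjusted p = 0.000284 from limma). At 1.93-fold it lay just under the fold threshold for altered genes.

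Among the controls, 8 of the 10 members were lowest in control library 3, and 7 were highest in control library 1. The same count over all genes was not made. The RPKM sum over all rows was also smallest in control library 3, at 393567, against 432290 and 422718 in control libraries 1 and 2. As a share of that sum, Nqo1, Hmox1, Gclm, Srxn1 and Gsr were lowest there, whereas Nfe2l2, Gclc, Txnrd1 and Slc7a11 were highest there. The summed macrophage markers were also lowest in control library 3, at 6786 RPKM, and the summed stromal markers highest there, at 2250 RPKM. After Tet1/Tet2 siRNA, 7 members were highest in siRNA library 3.

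The results were then set against the scaling of the libraries. Median-ratio scaling and quantile normalization moved the median of all genes from -0.09 to -0.01 and 0.06 on the log2 scale, and 6 and 7 members were called higher and none lower. Of all genes, 20.6% were called higher and 23% lower under the first of these scalings, and 27.2% higher and 19.8% lower under the other. Limma gave 1 member lower at an unadjusted p under 0.05 under each of these scalings. When the libraries were centred on the 15 macrophage markers, an alternative added after the data had been seen, the median of all genes was -0.31, with 5.92% of genes called higher and 57% lower. The 15 markers did not move together. Of these, 6 were still called higher and 5 lower after the centring, so it is not a uniform macrophage reference. Gclm (log2 fold change 1.07), Hmox1 (0.66), Gsr (0.59) and Srxn1 (0.26) were still called higher on this scale. Gclc (0.09, adjusted p = 0.401 from limma) and Txnrd1 (0.06, adjusted p = 0.445 from limma) were no longer called. Keap1 (-0.47), Nqo1 (-0.99) and also Nfe2l2 (-0.36, adjusted p = 0.00128 from limma) were called lower. Gclm, Hmox1, Gsr and Srxn1 were thus the members called higher under each of the 16 alternatives.

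**Figure D2:**
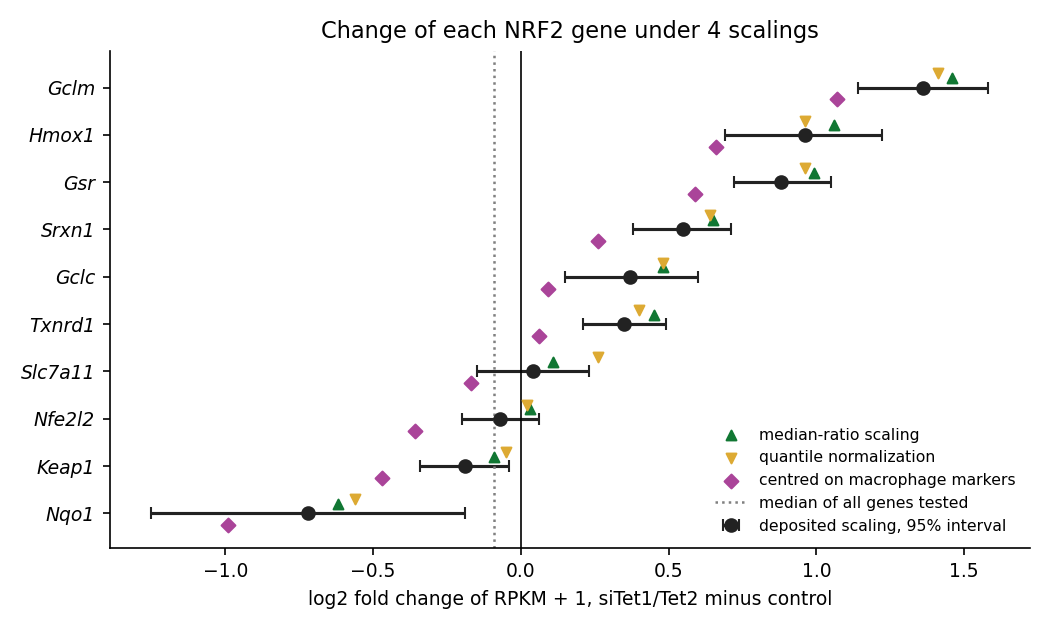
Log2 fold change of RPKM + 1 (Tet1/Tet2 siRNA minus control) for each NRF2 gene, with the scaling as deposited as black points with 95% intervals from limma, 3 other scalings as coloured marks, and the median of all genes tested, -0.09, as a dotted line. Gclm, Hmox1, Gsr, Srxn1, Gclc and Txnrd1 lie to the right of 0 on every scale, the last pair close to it when centred on the macrophage markers, Nqo1 and Keap1 to the left on every scale, and the marks of Nfe2l2 and Slc7a11 fall on both sides.

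Each member was also expressed as a ratio to Nfe2l2 in the same library, which a common factor for a library leaves unchanged. Hmox1 stood at 9.45 ± 1.34 times the level of Nfe2l2 in the controls and at 19.2 ± 1.45 times after Tet1/Tet2 siRNA (SD, n = 3 each). Gclm went from just below the level of Nfe2l2, at 0.948 ± 0.132, to 2.56 ± 0.116 (SD, n = 3 each). Counted with the ratio of Gclm to Gclc, 8 of 10 ratios were higher in every siRNA library than in any control and 1, that of Keap1, was lower, whereas the ratio of Nqo1 overlapped between the groups (exact permutation p = 0.2, two-sided). The ratio of Slc7a11 was among the 8 higher ones but moved little, from 0.0280 to 0.0306, and its own level overlapped between the groups. All ratios but that of Gclm to Gclc share Nfe2l2, whose mean was 85.1 RPKM in the controls and 80.9 RPKM after Tet1/Tet2 siRNA. They are therefore not separate evidence of a rise of each member. How many of all genes have a ratio to Nfe2l2 without overlap was not counted. No ratio could pass a threshold of 0.05 in this design, since the smallest exact p is 0.1.

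**Figure D3:**
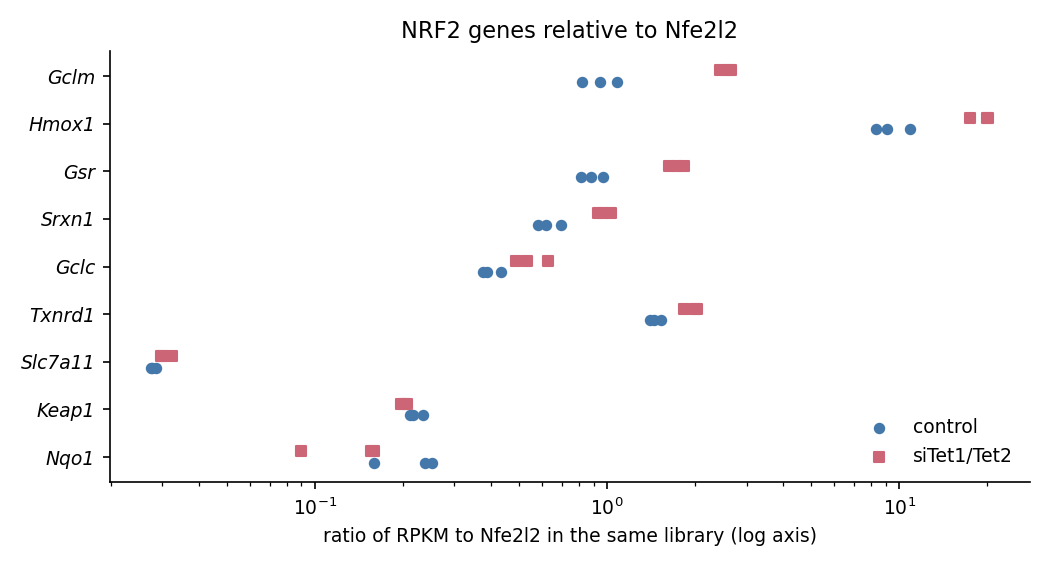
Ratio of the RPKM of 9 NRF2 genes to that of Nfe2l2 in the same library, on a log axis, with 1 blue circle per control library and 1 red square per Tet1/Tet2 siRNA library. The red squares lie to the right of the circles for Gclm, Hmox1, Gsr, Srxn1, Gclc, Txnrd1 and, by a small distance, Slc7a11, to the left for Keap1, and meet the lowest circle for Nqo1.

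To place these genes in their pathways, 9 lists with 97 further genes were examined, of which 92 were tested. Of these, 33 rose, 25 fell and 34 did not pass the test, with a median log2 fold change of 0.05. Of all 13266 genes tested, 14.7% were called higher and 29.8% lower, with a median of -0.09. The 25 of 92 that fell were near the share of all genes. So were the falls within the glutathione, NADPH supply, detoxification and oxidase lists below. The same shares are the background for every list below, unless another scaling or fit is named. The lists were written with earlier results of these data known, so their counts are not independent evidence of a direction. Other regulators of NRF2 changed little. Among 13 tested, none was called higher, also at an unadjusted p under 0.05 from limma, and 2 fell, with a list median of -0.08. These were the small MAF partners Mafk, from 15.2 ± 0.796 to 11.4 ± 0.199 RPKM (SD, n = 3 each; adjusted p = 0.00279 from limma), and Maff, from 8.88 ± 0.799 to 5.84 ± 2.06 RPKM (SD, n = 3 each; adjusted p = 0.0404 from limma), whose groups overlapped and whose call held under 9 of the 16 alternatives. With the replicate block 4 regulators were called lower, where 33.7% of all genes were, and 10 when centred on the macrophage markers, where 57% of all genes were. Median-ratio scaling gave 2 higher and 1 lower, quantile normalization 3 higher and 1 lower, and leaving out control library 3 gave 2 higher and 2 lower.

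Of 15 other genes of glutathione synthesis and use, 5 rose and 4 fell (list median -0.01). The largest increases were those of Mgst1, a membrane-bound glutathione transferase (from 86.0 ± 21.3 to 259 ± 33.4 RPKM, SD, n = 3 each), Gstm1, a cytosolic glutathione transferase (from 31.5 ± 4.35 to 88.6 ± 4.58 RPKM), and Gpx1, the main cytosolic glutathione peroxidase (from 213 ± 29.5 to 400 ± 45.0 RPKM). Reads of Gstm1 may be shared with its close paralogs. Gpx8 and Gpx7, peroxidases of the endoplasmic reticulum, fell from 40.9 ± 4.93 to 11.2 ± 3.55 RPKM and from 6.98 ± 1.46 to 1.44 ± 0.320 RPKM, and Glrx, glutaredoxin, fell from 136 ± 19.4 to 82.6 ± 6.29 RPKM. Each of these 6 genes was called under all 16 alternatives. In the thioredoxin and peroxiredoxin list, 5 of 11 rose and 1 fell (list median 0.19). The peroxiredoxins Prdx1 and Prdx6 rose from 302 ± 60.2 to 504 ± 51.9 RPKM and from 33.6 ± 3.41 to 49.4 ± 1.03 RPKM. Txnip, an inhibitor of thioredoxin, rose from 66.5 ± 4.0 to 84.4 ± 3.34 RPKM, and Txn2, the mitochondrial thioredoxin, fell from 97.9 ± 7.25 to 84.0 ± 1.73 RPKM (adjusted p = 0.032 from limma). The call of Txn2 held under 8 of the 16 alternatives. When the libraries were centred on the macrophage markers, 3 genes of the glutathione list were called higher and 7 lower. In the thioredoxin list 2 genes were then called higher, without Txnip, and 3 lower. Of all genes, 5.92% were called higher and 57% lower on that scale.

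Glutathione and thioredoxin reductases draw on NADPH, and 4 of 8 genes that supply it rose while 2 fell (list median 0.12). Idh1, the cytosolic isocitrate dehydrogenase, rose from 92.6 ± 6.46 to 195 ± 9.09 RPKM (SD, n = 3 each). Taldo1 and Pgd, of the pentose phosphate pathway, rose from 298 ± 54.3 to 560 ± 23.2 RPKM and from 247 ± 25.5 to 329 ± 9.67 RPKM. Me1, malic enzyme and a known NRF2 target, fell from 10.2 ± 0.522 to 6.04 ± 0.868 RPKM, and Mthfd1, of folate metabolism, from 20.3 ± 1.40 to 17.1 ± 0.773 RPKM, a call that held under 9 of the 16 alternatives. Centred on the macrophage markers, 2 genes of this list were called higher, without Pgd, and 4 lower, where 5.92% and 57% of all genes were. In the list of quinone, carbonyl and xenobiotic detoxification, to which Nqo1 is close in function, 4 of 11 rose and 3 fell (list median 0.18). Aldh2, the mitochondrial aldehyde dehydrogenase, rose from 272 ± 12 to 534 ± 14.8 RPKM, Cbr3, a carbonyl reductase, from 17.0 ± 2.48 to 26.7 ± 2.94 RPKM, and Akr1b8, an aldo-keto reductase, from 44.1 ± 6.53 to 62.4 ± 2.17 RPKM. Cyp1b1, a cytochrome P450, fell from 70.9 ± 3.14 to 14.6 ± 4.37 RPKM, Ephx1, the microsomal epoxide hydrolase, from 38.4 ± 4.85 to 27.0 ± 2.79 RPKM, and Osgin1, an oxidative stress-induced growth inhibitor, from 11 ± 0.929 to 8.03 ± 0.527 RPKM. With the replicate block 6 of these 11 genes were called higher, where 16.9% of all genes were. Centred on the macrophage markers 2 were called higher, without Akr1b8, and 5 lower, again beside 5.92% and 57% of all genes.

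The heme and iron genes, which lie next to Hmox1 in function, rose more uniformly. Of 11 tested, 9 rose and none was called lower, with 1 lower at an unadjusted p under 0.05 from limma, and the list median was 0.67. Hebp1, a heme-binding protein, rose 2.26-fold from 22.1 ± 0.555 RPKM (SD, n = 3). Slc48a1, which carries heme out of the phagolysosome, rose from 111 ± 14.8 to 228 ± 6.28 RPKM (SD, n = 3 each). Ftl1, the ferritin light chain and a known NRF2 target, rose from 3872 ± 682 to 7659 ± 640 RPKM, and reads of its pseudogenes may be counted with it. The log2 fold change of Ftl1, 1.00, was 0.04 under quantile normalization (adjusted p = 0.804 from limma), and the call was also lost without a filter on low values (0.0608). With the replicate block 10 were called higher and 1 lower, where 16.9% and 33.7% of all genes were. When the libraries were centred on the macrophage markers, 5 of the 11 were called higher and 1 lower, with a median of 0.38. Of all genes, 5.92% were then called higher and 57% lower. Of the superoxide dismutases and catalase, Cat rose from 145 ± 15.9 to 383 ± 10.1 RPKM and Sod1 from 92.4 ± 19.8 to 148 ± 14.9 RPKM, whereas Sod3, the extracellular enzyme, fell from 13.4 ± 1.23 to 4.82 ± 1.43 RPKM, and the fourth gene was not called.

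Slc7a11 is a target of ATF4 as well as of NRF2. Of 11 other ATF4 stress genes tested, 10 fell, where 29.8% of all genes did, with a list median of -1.09. None was called higher, also at an unadjusted p under 0.05 from limma. By the thresholds of the study 7 of the 10 were altered, and the share of all genes altered and lower was not counted. Ddit3, which encodes the stress factor CHOP, fell from 55.6 ± 5.18 to 15.5 ± 1.13 RPKM (SD, n = 3 each), Slc7a5, an amino acid transporter, from 14.8 ± 1.48 to 4.21 ± 0.987 RPKM, and Asns, asparagine synthetase, from 43.8 ± 3.85 to 15.4 ± 3.19 RPKM. Between 9 and 11 of these genes were called lower under the alternatives. Slc7a11 thus had overlapping groups while 10 of 11 ATF4 genes were lower. Its promoter, shown above, holds a pair of TGATGCAA matches, but the promoters of the other ATF4 genes were not examined singly. The part of ATF4 in these levels was not tested.

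NADPH oxidase and nitric oxide synthase genes were included as sources of oxidants, and 4 of 8 rose and 2 fell (list median 0.13). Cyba and Ncf1, subunits of the phagocyte oxidase, rose from 696 ± 108 to 1026 ± 57.7 RPKM and from 120 ± 12.5 to 142 ± 5.19 RPKM (SD, n = 3 each). Nox4 and Nox1, oxidases of non-phagocytic cells, were low in all libraries and fell from 0.766 ± 0.212 to 0.200 ± 0.124 RPKM and from 0.401 ± 0.0376 to 0.224 ± 0.0116 RPKM. The call of Ncf1 held under 8 of 16 alternatives and that of Nox1 under 7 of 15, since Nox1 does not reach a minimum mean of 1 RPKM. When the libraries were centred on the macrophage markers, none of the 8 was called higher, with 1 at an unadjusted p under 0.05 from limma. On that scale 4 were called lower, where 57% of all genes were.

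**Figure D4:**
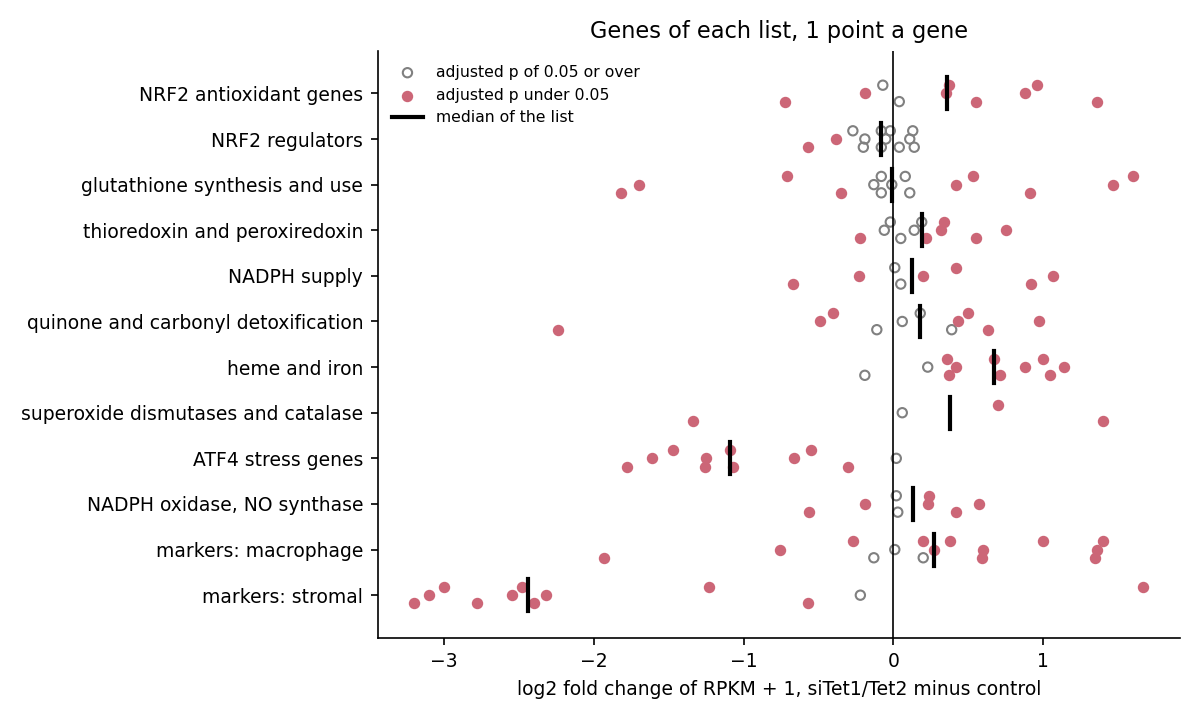
Log2 fold change of RPKM + 1 (Tet1/Tet2 siRNA minus control) of each gene tested, with 1 point per gene and 1 row per list, filled where the adjusted p from limma was under 0.05 and open otherwise, and a black bar at the median of the list. Most heme and iron genes lie to the right of 0 and most ATF4 stress genes and stromal markers to the left, whereas the NRF2 genes, with a median of 0.36, lie on both sides.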

How the data were processed

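RNA-seq of 3 control and 3 Tet1/Tet2 siRNA libraries was examined. The authors trimmed adaptors, mapped reads to GRCm38 and quantified genes with DNASTAR Lasergene 15.0. The deposited table of 36915 rows holds linear RPKM values, named FPKM in the methods. How multi-mapping reads and strand were handled, and which annotation was used, is not given in the sources used here, so values of close paralogs are uncertain. The table also holds a p-value of the authors for each row, which was not used. The table gives no depth. From the steps of low values it was estimated at 32400000 to 38500000 reads per library, with between 55.3% and 59.3% of the low values within 0.1 of a whole read, so no count test was run.

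Where a symbol had several rows, that of highest mean was used, and log2(RPKM + 1) was compared with limma 3.58.1 (R 4.3.3; lmFit, then trended eBayes; two-sided) wherever the mean reached 0.1 RPKM, which left 13266 genes, over all of which p-values were adjusted by Benjamini-Hochberg. Fold changes on the log2(RPKM + 1) scale understate changes of genes at low RPKM. The fit was tested on simulated data. Ratios were compared with exact permutation tests in Python 3.11.15 (numpy 2.4.6, pandas 2.3.3, scipy 1.17.1). The members, the pathway and marker lists and the tests were chosen with earlier results of these data known. All members were named, and from each further pathway list up to 3 called genes with the largest increase and 3 with the largest decrease; from the marker lists, the defining genes were named, and 1 gene that this rule would name is not reported here; the stromal markers Thy1, Lepr and Lum were singled out after their values had been seen. Positions are from GENCODE M21 on GRCm38, and promoters from RefSeq on GRCm38.p6.

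The labels give both groups the same replicate numbers. Deviations from the group means correlated across genes at 0.149 for number 1, 0.117 for number 2 and 0.462 for number 3. Since each exceeded 0.1, an alternative took the number as a replicate block. The pairing is inferred from values only. Crossed pairs gave 0.332 (control 1, siRNA 2) and 0.205 (control 2, siRNA 1), both above the values of numbers 1 and 2 as paired. The alternatives, 16 in all, were pseudocounts of 0.1 and 0.01, a minimum mean of 1 RPKM, no minimum, rescaling to the same sum, median-ratio scaling, quantile normalization, eBayes without trend, the replicate block, leaving out every library once and, added after the data had been seen, centring on the macrophage markers.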

Additional observations from a re-analysis of the deposited data

How the results depend on the processing

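Of the NRF2 genes, 6 were called higher and 2 lower by limma. The number called higher was between 4 and 7 under the 16 alternatives. The number called lower was 0 without a filter on low values, 0 under median-ratio scaling and 0 under quantile normalization, each with 1 gene lower at an unadjusted p under 0.05 from limma, and 1 by eBayes without trend. With the replicate block it was 1, because Keap1 was lost, and the block changed no other call of an NRF2 gene. With 1 library left out it ranged from 0 to 2; the count of 0 was met without control library 1 or 2 and without siRNA library 1 or 2, where 1, 0, 1 and 1 genes were lower at an unadjusted p under 0.05. The number altered, 1, was 2 under median-ratio scaling and 1 to 2 with 1 library left out, being 2 without control library 1 and without siRNA library 3. The median log2 fold change of 0.36 was 0.47 under median-ratio scaling, 0.44 under quantile normalization, 0.07 when centred on the macrophage markers, and 0.29 to 0.42 with 1 library left out. The sign turned for Nfe2l2 (0.03 under median-ratio scaling and 0.02 under quantile normalization), for Slc7a11 (-0.01 with the libraries rescaled to the same sum and -0.17 when centred) and for Tet3 (-0.14 when centred), and the cause was not tested. Of 288 counts for the further lists over all alternatives, 57 moved by more than 1.5 times or to or from 0.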

Other observations

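Markers of other cell types were also summed in each library. Their counts of genes rising and falling stand beside 14.7% of all genes tested called higher and 29.8% called lower. In each cell type list 1 gene, singled out after its values had been seen, carried much of the increase. Adipocyte markers, of which 4 of 5 tested rose and 1 fell, were at 276 to 335 RPKM in the controls and 566 to 722 RPKM after Tet1/Tet2 siRNA. Without Fabp4 they were at 35.7 to 40.4 RPKM and 30.7 to 37.0 RPKM. Most of that remainder was Pparg, which fell from 32.5 to 19.7 RPKM on average. Adipoq rose from 3.35 to 7.6 RPKM, Plin1 from 1.11 to 3.16 RPKM and Cidec from 1.12 to 4.06 RPKM. Osteoclast markers, of which 3 of 5 rose, were at 68.3 to 75.3 RPKM and 156 to 174 RPKM, and without Atp6v0d2 at 12.8 to 16.4 RPKM and 22.8 to 27.1 RPKM. Neutrophil markers, of which 3 of 10 were high enough to test, 2 rising and 1 falling, were at 10.4 RPKM in each control and 23.0 to 32.0 RPKM after Tet1/Tet2 siRNA, and without S100a8 at 8.20 to 8.54 RPKM and 13.8 to 15.9 RPKM. Lymphocyte markers, 2 of 9 tested and both higher, were at 2.81 to 3.60 RPKM and 8.93 to 9.66 RPKM, and without Cd4 at 0.412 to 0.990 RPKM and 0.972 to 1.36 RPKM. Endothelial markers, 2 of 5 higher and 2 lower with a median log2 fold change of -0.22, were at 4.27 to 5.04 RPKM and 7.34 to 7.75 RPKM, but without Vwf at 2.44 to 2.88 RPKM and 1.35 to 1.48 RPKM. Erythroid markers, 1 of 8 tested and higher, were at 0.984 to 1.09 RPKM and 2.28 to 2.44 RPKM, and without Epor at 0.092 to 0.239 RPKM and 0.169 to 0.341 RPKM. Genes of apoptosis and p53 stress were lower for 4 of 7 tested, with 690 to 709 RPKM in the controls and 476 to 501 RPKM after Tet1/Tet2 siRNA. The part of these genes in the results for the NRF2 genes was not tested.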
